A study of Caenorhabditis elegans with 6 samples.

Results

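The proteasome is the protease that degrades proteins tagged with ubiquitin, and it is built from a barrel and a cap. In the barrel, called the 20S core, outer rings of alpha subunits guard the entrance and inner rings of beta subunits cut the protein. The cap, called the 19S particle, has a base of ATPases that unfold the protein and a lid that removes its ubiquitin. In Caenorhabditis elegans the transcription factor SKN-1A is known to raise the genes of many subunits together when the proteasome is impaired.

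The subunits described here were the genes listed in the deposited table under a name that begins with pas, pbs, rpt or rpn followed by a number. They numbered 32 of 46739 features. They comprised 7 alpha subunits (pas-1 to pas-7), 7 beta subunits (pbs-1 to pbs-7), 6 base ATPases (rpt-1 to rpt-6) and 12 non-ATPase subunits of the cap (rpn genes). The rule used names alone and no measured value. The gene rpn-13 was listed under its sequence name, C56G2.7, so the rule did not take it, and its values are given among the cofactors.

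RNA of whole wild-type worms (strain N2) at the L4 larval stage was compared between 3 libraries of worms fed bacteria making double-stranded RNA against rab-11.1 and 3 libraries of worms fed bacteria that carried the vector with no insert (empty vector). RNA interference (RNAi) by feeding lasted all of development in both groups, on HT115 bacteria at 20 °C, and polyadenylated RNA was sequenced. The product of rab-11.1 is a Rab GTPase that acts in traffic through recycling endosomes. The labels call the libraries biological replicates 1 to 3 and do not say whether they came from separate cultures, so the p-values measure the spread between these libraries, which may be technical.

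The deposited values were RPKM (reads scaled to transcript length and to the library's mapped reads). The libraries held 22946375 to 25107994 reads after rab-11.1 RNAi and 27190567 to 30183162 reads on empty vector, as recovered from the steps between low values. The knockdown's own target measured 151.3, 137.8 and 632.6 RPKM in replicates 1 to 3 of rab-11.1 RNAi, against 411.1, 398.2 and 409.5 RPKM on empty vector, so the library labelled replicate 3 of rab-11.1 RNAi goes against its label. Without it rab-11.1 was lower (log2 fold change -1.49, limma adjusted p = 0.00557), and with it the target did not pass (-0.78, adjusted p = 0.415). Proteasome results are therefore also given without that library. In bulk RNA of whole worms, fewer cells of a type and less RNA per cell cannot be told apart. Marker sums differed between groups in some tissues. The 6 body wall muscle markers summed to 2221 to 2613 RPKM after rab-11.1 RNAi, against 2872 to 2984 RPKM on empty vector, and the 7 neuronal markers to 383.1 to 542.3 against 288.6 to 339.2 RPKM. The 6 intestinal markers summed to 3689 to 4720 against 4464 to 5284 RPKM, the 6 epidermal markers to 4839 to 6016 against 5408 to 6287 RPKM, and the 5 pharyngeal markers to 87.3 to 108.7 against 121.4 to 139.2 RPKM. Of the markers, elt-3 (epidermis) and snb-1 (neurons) were higher and vha-6 (intestine) was lower (limma adjusted p = 0.0385, 0.0390 and 0.0369). The log2 fold change was above 0 in 3 of 6 epidermal, 6 of 7 neuronal and 1 of 6 intestinal markers. It was above 0 in 0 of 6 body wall muscle markers and 1 of 4 pharyngeal markers tested, against 62.7% of all features tested. No marker gene was at 0 in any library, and the part of these differences in the proteasome values was not tested.

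Proteasome transcripts were abundant and evenly expressed. Apart from rpn-6.2, the mean levels of the 31 other subunits differed by 2.85-fold between the highest and the lowest gene after rab-11.1 RNAi and by 3.00-fold on empty vector, on the RPKM scale, which is per transcript length. Each of these 31 genes rested on 2912 to 9551 reads in every library, and their mean over all libraries lay above that of at least 89.8% of the 13833 features tested. The 3 highest levels after rab-11.1 RNAi were those of pas-3 (235.2 ± 5.12 RPKM, SD, n = 3), pas-2 (233.2 ± 19.7) and pbs-1 (230.5 ± 4.67), which differed by no more than their spread. On empty vector pbs-1 led, at 221.8 ± 4.61 RPKM (SD, n = 3). The median level of the 14 core subunits was 194.5 RPKM after rab-11.1 RNAi and 164.4 RPKM on empty vector, and that of the 18 cap subunits was 132.5 RPKM after rab-11.1 RNAi and 120.1 RPKM on empty vector. Core transcripts thus stood above most cap transcripts per length in both groups. Across the 31 genes, shorter transcripts had higher levels (Pearson's r -0.72, Spearman's rho -0.75, of length and mean level). The part of length in the difference between core and cap was not tested. The order of levels across the 31 genes was nearly the same in both groups (Spearman's rho 0.97 and Pearson's r 0.98 of mean log2 levels), as a description across genes that share the same libraries.

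**Figure D1:**
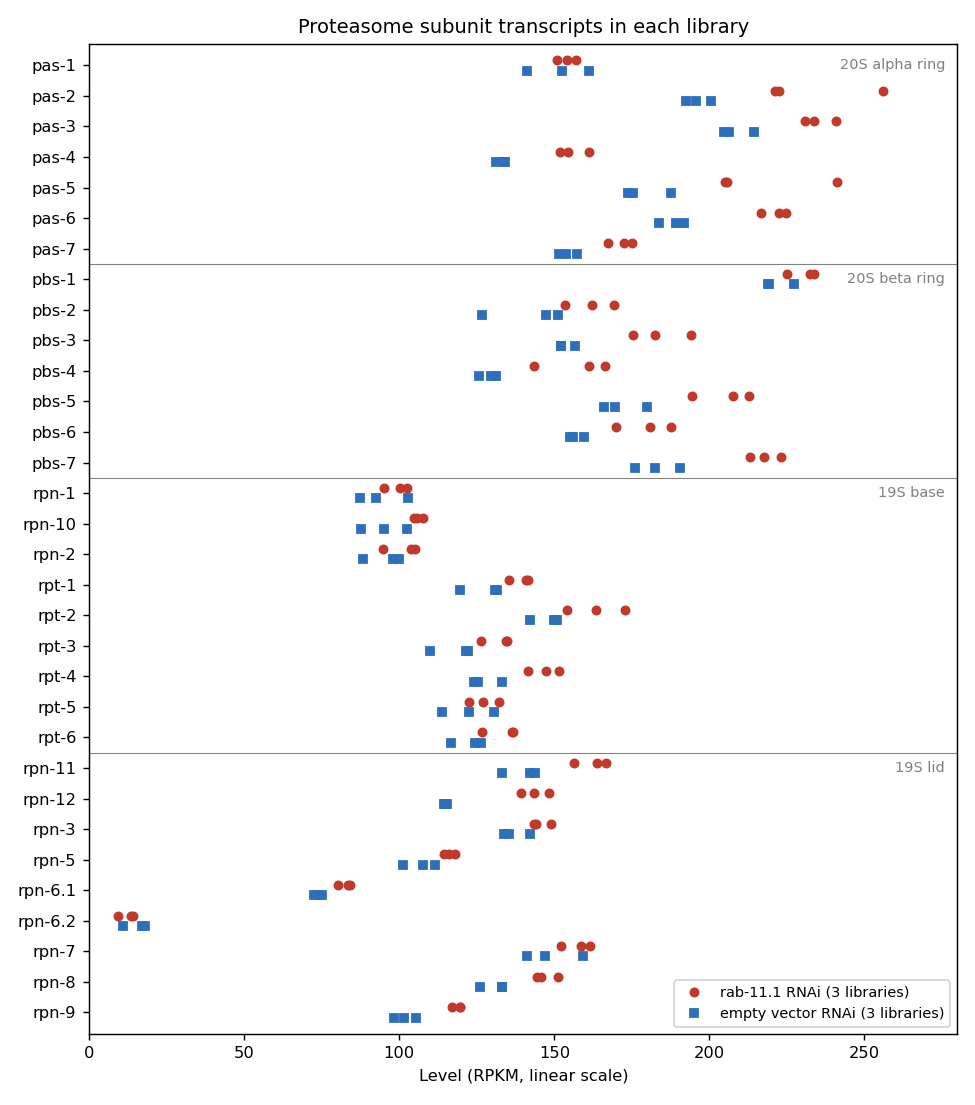
Level of each proteasome subunit in each library, in RPKM on a linear axis, with the 3 rab-11.1 RNAi libraries as circles above and the 3 empty vector libraries as squares below. The circles lie to the right of all squares in 25 of 32 genes, and rpn-6.2 stands apart at 9.24 to 17.9 RPKM.

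As deposited, the values of 31 of 32 subunits were higher by a small amount. With median-of-ratios scaling that number was 22, against 47.4% of all features tested. After rab-11.1 RNAi the levels of the subunits summed to 4917, 4998 and 4958 RPKM in replicates 1, 2 and 3. On empty vector they summed to 4387, 4310 and 4464 RPKM, so the sums of the groups did not overlap. As a share of all RPKM these sums were 0.642% to 0.647% after rab-11.1 RNAi, against 0.553% to 0.596% on empty vector. Fold changes were estimated on log2(RPKM + 1), as rab-11.1 RNAi minus empty vector. The median log2 fold change of the subunits was 0.17, against 0.09 for all features tested. For the 2131 features with a mean of 50 RPKM or more, which are nearer to the subunits in level, the median was 0.03. The log2 fold change was above 0 in 31 of 32 subunits, against 62.7% of all features tested and 53.5% of those at 50 RPKM or more. All 3 rab-11.1 RNAi libraries lay above all 3 empty vector libraries in 25 subunits, against 27.4% of all features tested and 26.3% of those at 50 RPKM or more. All lay below in 0 subunits, against 6.53% of all features tested.

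Single genes mostly did not pass the test. With limma and Benjamini-Hochberg adjustment over all 13833 features at 0.05, 1 subunit, rpn-12, was higher and 0 were lower, against 7.93% of all features called higher and 1.07% called lower. The share of subunits called is below the background share. With the replicate number as a block, 2 subunits, pas-5 and rpn-12, were higher and 0 were lower, against 16.5% called higher and 4.47% called lower of all features in that fit. Of the other 31 subunits in the unblocked fit, 7 had an adjusted p between 0.05 and 0.1, the lowest at 0.0689 (pbs-7) and the highest over all subunits at 0.874 (pas-1). At an unadjusted p under 0.05, 17 subunits were higher, against 21.6% of all features. As deposited, the changes were bounded: apart from rpn-6.2, mean RPKM differed by 1.49% to 25.0%. The 95% intervals of these log2 fold changes ran no lower than -0.16 and no higher than 0.49, a 1.40-fold difference. These intervals do not cover the choice of scaling. With median-of-ratios scaling the log2 fold changes, apart from rpn-6.2, ran from -0.10 (pas-1) to 0.20 (rpn-12).

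**Figure D2:**
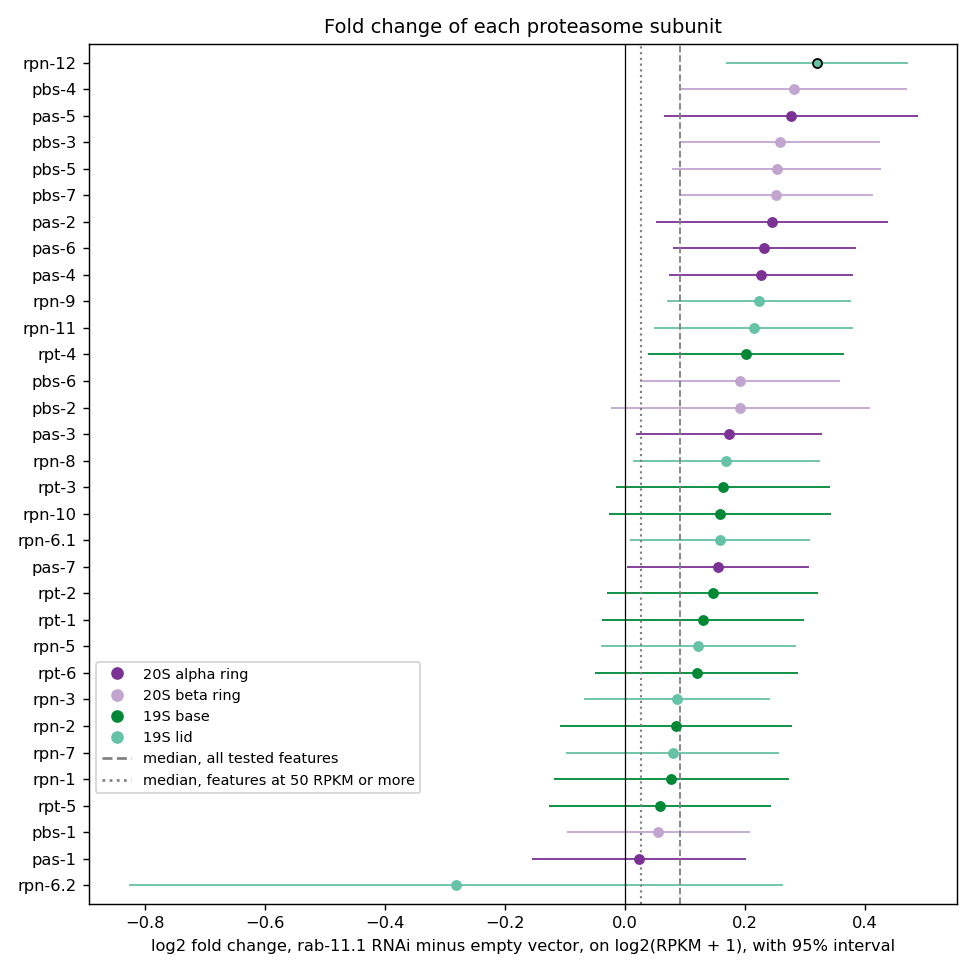
Log2 fold change of each subunit on log2(RPKM + 1), rab-11.1 RNAi minus empty vector, with its 95% interval from limma, coloured by subcomplex. Points of 31 genes lie right of 0 (22 with median-of-ratios scaling), rpn-12 (black outline) alone passed the threshold, and the dashed and dotted lines mark the medians of all features tested (0.09) and of those at 50 RPKM or more (0.03).

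The size of the shift depended on scaling. Dividing each library by its median-of-ratios factor moved the median log2 fold change to -0.02 for all features tested and to 0.04 for the subunits. With it 22 of 32 subunits were above 0 (12 of 14 in the core and 10 of 18 in the cap), against 47.4% of all features tested. Quantile normalization moved these medians to -0.04 and 0.09, with 26 subunits above 0, against 44.4% of all features tested. Relative to the median of all features the subunits' median stood 0.08 higher as deposited, 0.06 higher with median-of-ratios scaling and 0.13 higher with quantile normalization. The subunits called numbered 0 with either scaling, against 3.99% and 3.79% of all features called higher with median-of-ratios scaling and quantile normalization. Over all features, 88.1% of calls were higher as deposited, 65.9% with median-of-ratios scaling and 67.8% with quantile normalization.

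The shift was present in each rab-11.1 RNAi library, including the library labelled replicate 3. Between libraries of the same number the median log2 difference of the subunits was 0.15, 0.20 and 0.15 for replicates 1, 2 and 3, against 0.09, 0.11 and 0.08 for all features tested. In that labelled replicate 3, 29 of 32 subunits exceeded every empty vector library, against 27 in replicate 1 and 25 in replicate 2. Of all features tested, 41.8%, 42.4% and 47.1% did so in replicates 3, 1 and 2. Without it the median log2 fold change of the subunits was 0.16, against 0.09 for all features tested. In that fit 0 subunits passed, against 4.17% of all features called higher.

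Within the core, the alpha subunits form the gated outer rings. Their median log2 fold change was 0.23, and all rab-11.1 RNAi libraries were above all empty vector libraries in 6 of 7, against 27.4% of all features. The largest change was that of pas-5 (chromosome I, 10566350 to 10567300, plus strand, build WBcel235), with 205.0, 241.3 and 205.7 RPKM in replicates 1 to 3 of rab-11.1 RNAi, against 175.3, 187.6 and 173.6 RPKM on empty vector. All rab-11.1 RNAi libraries were higher, with replicate 2 the highest of both groups. The log2 fold change was 0.28 (SE 0.09, limma adjusted p = 0.107), and with the replicate block it passed (adjusted p = 0.0456). The exception was pas-1 (chromosome V, 14421566 to 14422618, minus strand), with 156.8, 150.9 and 154.0 RPKM after rab-11.1 RNAi, against 152.5, 141.2 and 161.3 RPKM on empty vector. Its groups overlapped, with the empty vector libraries spread on both sides of the rab-11.1 RNAi libraries (log2 fold change 0.02, SE 0.08).

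The beta subunits hold the cutting sites. Their median log2 fold change was 0.25, and 6 of 7 had every rab-11.1 RNAi library above every empty vector library, against 27.4% of all features. The largest was that of pbs-4 (chromosome I, 3908747 to 3909701, plus strand), a structural beta subunit, with 161.1, 166.4 and 143.5 RPKM after rab-11.1 RNAi, against 125.7, 131.2 and 129.6 RPKM on empty vector. The value labelled replicate 3 was the lowest after rab-11.1 RNAi and still above every empty vector library (log2 fold change 0.28, SE 0.08, limma adjusted p = 0.0766). The catalytic subunits beta 1, beta 2 and beta 5 are encoded by pbs-1, pbs-2 and pbs-5, of which pbs-2 and pbs-5 are named here for this role.

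The caspase-like site gene pbs-1 (chromosome IV, 1708814 to 1709745, minus strand) had 233.8, 225.2 and 232.6 RPKM after rab-11.1 RNAi, against 219.1, 227.2 and 219.3 RPKM on empty vector. Its groups overlapped, since replicate 2 was the lowest rab-11.1 RNAi library and the highest empty vector library (log2 fold change 0.06, SE 0.06). The trypsin-like site gene pbs-2 averaged 161.6 ± 7.93 RPKM after rab-11.1 RNAi and 141.7 ± 13.1 RPKM on empty vector (SD, n = 3 each), with a log2 fold change of 0.19 (SE 0.09, limma adjusted p = 0.234). The chymotrypsin-like site gene pbs-5 averaged 204.9 ± 9.57 RPKM after rab-11.1 RNAi and 171.8 ± 7.30 RPKM on empty vector (log2 fold change 0.25, SE 0.07, limma adjusted p = 0.0824). None of the catalytic subunits passed, and differences between their fold changes were not tested.

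The base of the cap had a lower median than the core rings. Its 9 listed genes are the ATPases rpt-1 to rpt-6, the scaffold subunits rpn-1 and rpn-2 and the ubiquitin receptor rpn-10. Their median log2 fold change was 0.13, from 0.06 (rpt-5) to 0.20 (rpt-4), and rab-11.1 RNAi libraries were all above in 6 of 9, against 27.4% of all features. None passed. The ATPase gene rpt-4 averaged 146.8 ± 5.04 RPKM after rab-11.1 RNAi and 127.5 ± 4.87 RPKM on empty vector, whereas rpt-5 averaged 127.2 ± 4.74 RPKM after rab-11.1 RNAi and 122.3 ± 8.36 RPKM on empty vector (SD, n = 3 each).

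The lid holds the deubiquitinase rpn-11 and its structural partners. Of its 9 genes 7 had all rab-11.1 RNAi libraries above, against 27.4% of all features, and the median log2 fold change was 0.16. The structural lid gene rpn-12 (chromosome II, 11653124 to 11654192, plus strand) rose, with 148.2, 143.6 and 139.1 RPKM after rab-11.1 RNAi, against 114.4, 114.9 and 115.4 RPKM on empty vector. The SD of the empty vector libraries was 0.51 RPKM (n = 3), and every rab-11.1 RNAi library was above them. Its log2 fold change was 0.32 (SE 0.06, limma adjusted p = 0.0300), and 22.9% of all features tested had a larger increase, with decreases not counted. The call ended in every fit that left out 1 library (adjusted p 0.0565 to 0.133), including that without replicate 3 of rab-11.1 RNAi (0.0644), and without the variance trend (0.0757). The deubiquitinase gene rpn-11 averaged 162.2 ± 5.41 RPKM after rab-11.1 RNAi and 139.7 ± 5.81 RPKM on empty vector (SD, n = 3 each) and did not pass (limma adjusted p = 0.109). The scaffold gene rpn-6.1, known in C. elegans for its link to lifespan in worms without a germline, averaged 82.5 ± 2.04 RPKM after rab-11.1 RNAi and 73.9 ± 1.17 RPKM on empty vector (limma adjusted p = 0.171).

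The gene rpn-6.2, a paralogue of rpn-6.1 (chromosome III, 8999817 to 9001999, minus strand), stood apart from the others. It was the lowest subunit by level, with 14.1, 9.24 and 13.6 RPKM in replicates 1 to 3 of rab-11.1 RNAi, against 17.2, 10.8 and 17.9 RPKM on empty vector, on 336 to 808 reads. Replicate 2 was the lowest of both groups, and the groups overlapped. As deposited, it was the only subunit with a negative log2 fold change (-0.28, SE 0.23, limma adjusted p = 0.487). In a fit without replicate 2 of either group, which was added once the data had been seen, rpn-6.2 was lower (log2 fold change -0.32, adjusted p = 0.0485) and 1 subunit, rpn-12, was higher, against 3.48% of all features called lower and 12.3% called higher in that fit. The level of rpn-6.1 was 6.71 times that of rpn-6.2 after rab-11.1 RNAi and 4.83 times on empty vector.

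The sums of sperm, oocyte and germline markers were, like rpn-6.2, lowest in replicate 2 of each group. Of all features tested, 27.4% were lowest in replicate 2 of both groups. The 6 sperm markers, among them the sperm phosphatase genes gsp-3 and gsp-4, summed to 78.7, 44.9 and 78.4 RPKM after rab-11.1 RNAi, against 109.5, 45.2 and 96.1 RPKM on empty vector. The 6 oocyte markers summed to 38.002, 18.289 and 48.196 RPKM after rab-11.1 RNAi, against 67.08, 28.02 and 65.29 RPKM on empty vector. The 7 germline markers summed to 401.8, 270.3 and 432.7 RPKM after rab-11.1 RNAi, against 558.0, 339.0 and 511.3 RPKM on empty vector. Replicate 2 was the lowest library of each group in all of these sums, and none of the markers of these lists passed without the block (limma). With the replicate block 5 of 6 oocyte, 4 of 7 germline and 1 of 6 sperm markers were lower, against 4.47% of all features in that fit. Each of these sums, like rpn-6.2, was lower after rab-11.1 RNAi than on empty vector in all 3 pairs of the same replicate number, and rpn-6.2 had an adjusted p of 0.0574 with the block. The part of these cells in the level of rpn-6.2 was not tested.

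**Figure D3:**
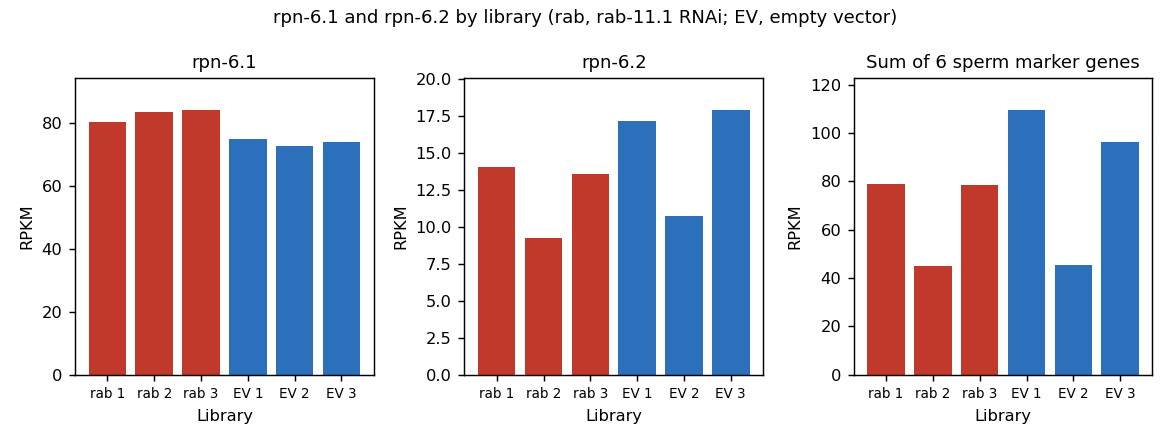
Levels in RPKM of rpn-6.1, rpn-6.2 and the sum of the 6 sperm markers, each bar 1 library and each axis starting at 0, with rab-11.1 RNAi (red) left of empty vector (blue). Replicate 2 holds the lowest rpn-6.2 level (9.24 and 10.8 RPKM) and the lowest marker sum (44.9 and 45.2 RPKM) of each group, whereas rpn-6.1 stays at 80.2 to 84.0 RPKM after rab-11.1 RNAi, against 72.6 to 74.9 RPKM on empty vector.

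Levels also varied by replicate number. Replicate 2 was the lowest library of both groups in 7 of 9 base genes (rpn-1, rpn-2, rpt-1, rpt-2, rpt-3, rpt-5 and rpt-6) and in 4 of 9 lid genes (rpn-5, rpn-6.2, rpn-7 and rpn-8), and in the core in pas-1, against 27.4% of all features tested and 17.8% of those at 50 RPKM or more. It was the highest of both groups in pas-2, pas-5, pbs-4 and pbs-5, and in 0 cap genes, against 23.9% of all features tested and 29.1% of those at 50 RPKM or more. A count of 4 in the core's 14 genes is near that share. These genes were named after their values were seen. In the core the median log2 level relative to the empty vector mean was 0.18, 0.27 and 0.20 in replicates 1 to 3 of rab-11.1 RNAi, against 0.15, 0.09 and 0.15 in the cap. On empty vector the cap stood at 0.02, -0.07 and 0.05 and the core within 0.01 of 0 in every library.

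Transcript length moved with these differences. The core transcripts measured 828 to 1234 nt and the cap transcripts, apart from rpn-6.2, 928 to 3419 nt. Across the 31 subunits other than rpn-6.2 length and log2 fold change were related at a Pearson's r of -0.55 (Spearman's rho -0.58), against -0.12 (-0.17) across the 2131 features at 50 RPKM or more. These are descriptions across genes that share libraries. For subunits of over 500 and up to 1000 nt (n = 10) the median log2 fold change was 0.24, against 0.08 for the features at 50 RPKM or more of that length. For over 1000 and up to 1500 nt (n = 15) it was 0.17, against 0.01. For over 1500 and up to 2000 nt (n = 5) it was 0.12, against -0.04. For rpn-1 and rpn-2, of over 3000 nt, it was 0.08, against -0.03. In each of these length classes the median of the subunits was thus above that of the other abundant features. A setting chosen after seeing the data subtracted the trend of each library against length. The median log2 fold change was then 0.09 for the core and 0.04 for the cap. It was -0.01 for all features tested and -0.10 for those at 50 RPKM or more. In that fit 27 of 32 subunits were above 0, against 47.8% of all features tested. The subunits called numbered 0, against 3.99% of all features called higher.

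**Figure D4:**
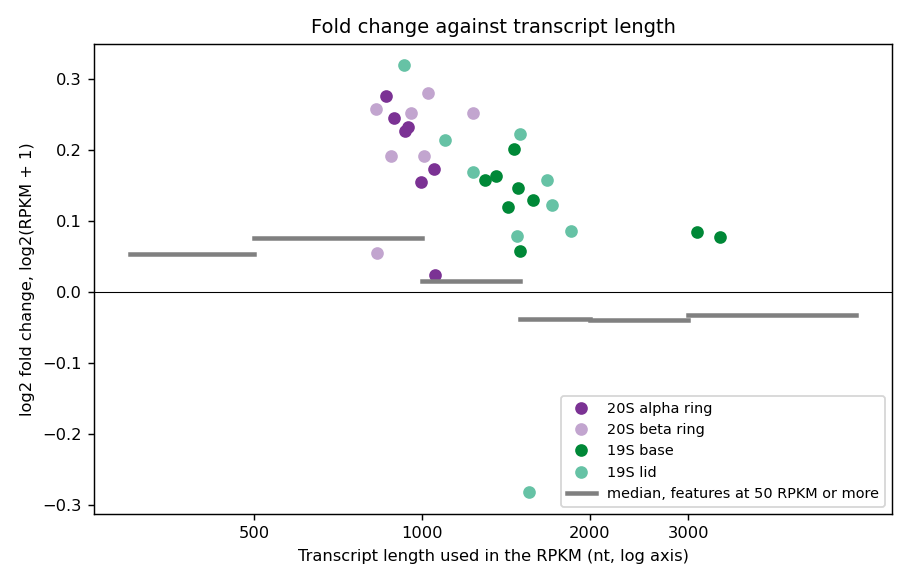
Log2 fold change of each subunit on log2(RPKM + 1) against the transcript length behind its RPKM (nt, log axis), coloured by subcomplex, with grey lines for the median of features at 50 RPKM or more in 6 length classes (the outer classes are open-ended). The subunits of over 500 and up to 1000 nt have a median of 0.24 and those over 3000 nt of 0.08, each above the grey line of its class (0.08 and -0.03).

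Genes that regulate, load or feed the proteasome mostly had positive fold changes as deposited, and some passed. The log2 fold change was above 0 in 21 of 21 regulators and cofactors and 13 of 13 genes of ubiquitin and its conjugation, against 62.7% of all features as deposited. With median-of-ratios scaling these numbers were 17 and 9, against 47.4% of all features. In a list of 21 regulators and cofactors 3 rose, 0 fell and 18 did not pass, with a median log2 fold change of 0.24. The list was 14.3% called, against 7.93% of all features. With the replicate block 9 rose, against 16.5% of all features in that fit. With median-of-ratios scaling 1 rose (aip-1), against 3.99% of all features called higher in that fit. The gene aip-1, a stress-inducible zinc finger protein that associates with the proteasome in C. elegans, had 48.7, 54.4 and 36.9 RPKM after rab-11.1 RNAi, against 20.1, 22.6 and 21.9 RPKM on empty vector. Every rab-11.1 RNAi library was higher, and the library labelled replicate 3 was the lowest of them. It rose 2.16-fold (log2 fold change 1.06, SE 0.14, limma adjusted p = 0.00871) and passed in 5 of 6 fits that left out 1 library, the exception being that without empty vector replicate 3 (adjusted p = 0.0511). The unfoldase adaptor gene ufd-1 and the ubiquitin shuttle gene ubql-1 rose 1.32-fold and 1.28-fold (limma adjusted p = 0.0254 and 0.0470), but both calls ended in most or all fits that left out 1 library (1 of 6 and 0 of 6 passed).

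Of the SKN-1A pathway, skn-1 itself had 46.5, 47.4 and 47.0 RPKM after rab-11.1 RNAi, against 40.9, 39.5 and 40.2 RPKM on empty vector. All rab-11.1 RNAi libraries lay above all empty vector libraries, as in 27.4% of all features tested. The log2 fold change of skn-1 was 0.22 (SE 0.06, limma adjusted p = 0.0818), and 0.10 with median-of-ratios scaling (adjusted p = 0.404). The deposited values do not separate its isoforms, and skn-1 shares 41 exon bases with csn-5 on the opposite strand. The protease gene ddi-1 (listed as C01G5.6), whose product cleaves SKN-1A, had 41.6, 46.5 and 32.3 RPKM after rab-11.1 RNAi, against 27.0, 26.7 and 28.5 RPKM on empty vector. Replicates 1 and 2 were clearly above the library labelled replicate 3, which still exceeded every empty vector library. The log2 fold change was 0.52 (SE 0.13, limma adjusted p = 0.0615). It passed without replicate 3 of rab-11.1 RNAi (log2 fold change 0.66, adjusted p = 0.0220) and with the replicate block (adjusted p = 0.0385). With median-of-ratios scaling ddi-1 did not pass (log2 fold change 0.40, limma adjusted p = 0.135), nor with quantile normalization (0.38, adjusted p = 0.143). The peptide N-glycanase gene png-1, which edits SKN-1A, had 21.97, 21.42 and 23.01 RPKM after rab-11.1 RNAi, against 21.23, 20.29 and 20.74 RPKM on empty vector (limma adjusted p = 0.495). The ubiquitin receptor gene rpn-13 averaged 96.8 ± 1.04 RPKM after rab-11.1 RNAi and 87.2 ± 4.07 RPKM on empty vector (SD, n = 3 each, limma adjusted p = 0.215). With median-of-ratios scaling the log2 fold change was -0.03 for png-1 and 0.03 for rpn-13. With quantile normalization it was 0.09 for skn-1, -0.06 for png-1 and 0.05 for rpn-13.

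Of 13 genes of ubiquitin and its conjugation 4 rose, 0 fell and 9 did not pass (median log2 fold change 0.25), against 7.93% of all features called higher. With the replicate block 7 rose, against 16.5% of all features in that fit. The polyubiquitin gene ubq-1 rose 1.36-fold, with 400.7, 403.0 and 366.3 RPKM after rab-11.1 RNAi, against 290.1, 292.1 and 277.7 RPKM on empty vector (log2 fold change 0.44, SE 0.07, limma adjusted p = 0.0160). The groups were apart by more than the spread within either. The conjugating enzyme genes ubc-18 and ubc-1 rose 1.31-fold and 1.38-fold (limma adjusted p = 0.0171 and 0.0205). The activating enzyme gene uba-1 rose as well (log2 fold change 0.40, SE 0.09, limma adjusted p = 0.0345), named here as the remaining call of the list. Of the 6 fits that left out 1 library, ubq-1 passed in 3, ubc-18 in 2, ubc-1 in 3 and uba-1 in 0. With median-of-ratios scaling none of these genes passed (adjusted p 0.0654 to 0.109), whereas aip-1 did (adjusted p = 0.0176).

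Other large complexes served for comparison. The COP9 signalosome and the translation factor eIF3 share the architecture of the lid, and the CCT chaperonin is a folding machine of similar abundance. Of 7 COP9 signalosome genes, csn-2 rose (1.37-fold, limma adjusted p = 0.0312, lost in 5 of 6 fits that left out 1 library) and 6 did not pass, against 7.93% of all features called higher. The median log2 fold change of the list was 0.21. The call of csn-2 was also lost with median-of-ratios scaling (adjusted p = 0.0883) and quantile normalization (0.0857). The next in this list were csn-3 and csn-6 (limma adjusted p = 0.0787 and 0.0946). Of 10 eIF3 genes 0 passed and the median was -0.09. The lowest adjusted p were those of eif-3.B (0.0611, lower, past the threshold at 0.0325 with the replicate block and at 0.0247 with median-of-ratios scaling), egl-45 (0.191) and eif-3.C (0.219). Of 8 CCT genes 0 passed and the median was -0.05, the lowest adjusted p being those of cct-2 (0.230), cct-3 (0.375) and cct-8 (0.568). At an unadjusted p under 0.05, 1 eIF3 gene and 0 CCT genes passed. All 3 rab-11.1 RNAi libraries were above all empty vector libraries in 6 of 7 COP9 signalosome, 0 eIF3 and 0 CCT genes, against 27.4% of all features. All were below in 0 COP9 signalosome, 4 of 10 eIF3 and 2 of 8 CCT genes, against 6.53% of all features. With median-of-ratios scaling the medians were 0.04 for the subunits, 0.12 for the regulators, 0.13 for ubiquitin, 0.09 for the COP9 signalosome, -0.21 for eIF3 and -0.18 for CCT. This scaling moved the medians of these lists by nearly the same amount, by its construction, so it cannot change the order of the lists. With quantile normalization the medians were 0.09 for the subunits, 0.13 for the regulators and 0.17 for ubiquitin. They were 0.08 for the COP9 signalosome, -0.16 for eIF3 and -0.10 for CCT. The subunits thus stood above the COP9 signalosome with quantile normalization and below it as deposited. Differences between lists were not tested.

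**Figure D5:**
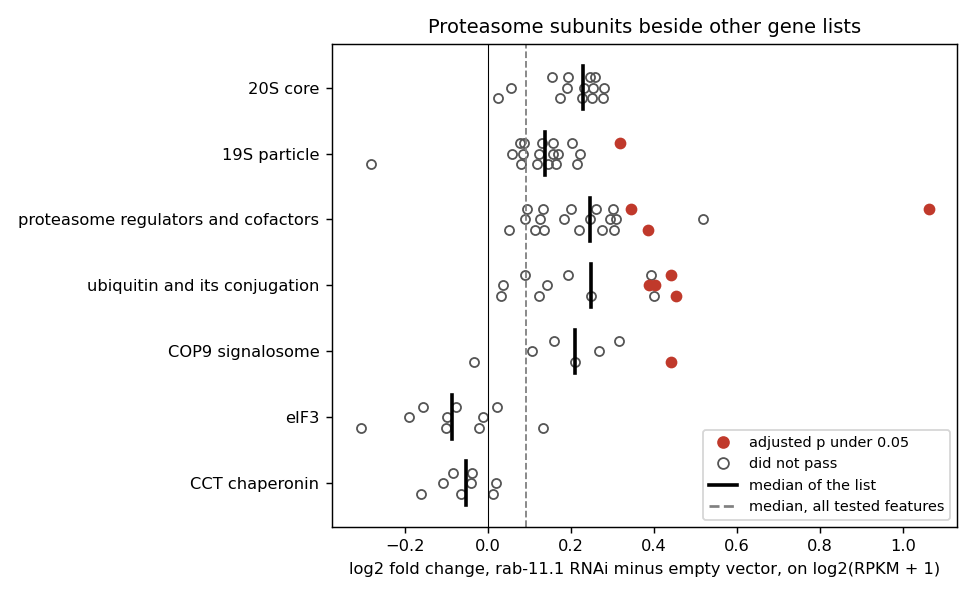
Log2 fold change of single genes on log2(RPKM + 1), rab-11.1 RNAi minus empty vector, in 7 lists, filled where the limma adjusted p was under 0.05, with a bar at each list's median and a dashed line at the median of all features tested (0.09). The medians of the core (0.23), the cap (0.14), the regulators (0.24), ubiquitin (0.25) and the COP9 signalosome (0.21) lie right of the dashed line, and those of eIF3 (-0.09) and CCT (-0.05) left of 0.

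The exons of 11 of the 32 subunits overlap those of another gene, most widely rpn-7 with nemt-1 (394 bases), rpn-9 with T06D8.12 (140 bases) and rpt-4 with rpoa-49 (103 bases), all on the opposite strand. The 1 overlap on the same strand was that of pbs-7 with K07A12.5 (70 bases). Whether counting used the strand is not given in the sources used here, so reads of these stretches cannot be assigned with certainty.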

How the data were processed

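The authors deposited RPKM values for 46739 features in 6 libraries and their group means, per the file headers. Per the submitters' processing notes, WBcel235 was the build used. Which aligner, counter and annotation were used is not given in the sources used here. Symbols found 41597 features in Ensembl release 115, and sequence names a further 1273.

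Depths and whole reads (tolerance 0.001 reads) were recovered from the values. At the annotated length 3 of the 32 subunits gave whole reads. For the other 29 the length was chosen to make the reads whole, so their wholeness is no check, and read numbers and lengths rest on that choice. As an alternative, limma-voom on these reads called 1053 higher and 135 lower, with 1 subunit among them. The 95% intervals are limma's and reflect the spread between libraries.

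The 13833 features that reached 1 RPKM in 3 libraries, all 32 subunits among them, entered limma 3.58.1 under R 4.3.3 on the log2(RPKM + 1) scale (trend and robust settings, two-sided, group as the only term, Benjamini-Hochberg adjustment over all features, threshold 0.05). The pseudocount of 1 understates changes of low genes. The script was tested on simulated data. Other pseudocounts, filters and scalings, the replicate block and leaving out libraries were tried.

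Deviations from group means correlated at 0.40, 0.62 and 0.35 between libraries of the same replicate number. All exceed 0.1, and the numbers were treated as pairs in the fits with the replicate block and in differences between libraries of the same number. The main fit did not use the pairs. Replicate 1 on empty vector was closer to replicate 3 of rab-11.1 RNAi (0.46), and replicate 3 on empty vector correlated with replicate 1 of rab-11.1 RNAi at 0.18. A value above 0.1 therefore does not single out the pairs of the same number. Only replicate 2 correlated positively with its own number alone. These correlations are across genes.

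The subunits and the lists (regulators and cofactors, ubiquitin and its conjugation, COP9 signalosome, eIF3, CCT, tissue markers) were chosen with earlier results of these data known. Named with values in every library were subunits that passed, the 3 largest and 3 smallest log2 fold changes, and the highest and lowest by mean level. In the other lists skn-1, png-1, ddi-1, aip-1, rab-11.1 and the 3 genes of smallest adjusted p were named. Other names were chosen for their role or after their values were seen.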

Additional observations from a re-analysis of the deposited data

How the results depend on the processing

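Subunits called higher numbered 1 as deposited and 0 with median-of-ratios scaling, quantile normalization, no variance trend, the replicate block without both replicate 3 libraries, and the length trend removed with or without the block. They numbered 0 to 0 when 1 library was left out and 2 with the replicate block. Subunits called lower numbered 1 (rpn-6.2) without both replicate 2 libraries and with the block and length trend removed. The block changed no other call among the subunits. The median log2 fold change was 0.042 with median-of-ratios scaling, 0.092 with quantile normalization, and 0.051 with the length trend removed, with or without the block. Over all features, 1097 were higher and 148 lower. Higher and lower calls numbered 552 and 285 with median-of-ratios scaling, 524 and 249 with quantile normalization, 2288 and 618 with the replicate block, 1652 and 467 without both replicate 2 libraries, and 552 and 274 with the length trend removed. Lower calls numbered 97 with no filter, 88 with no variance trend, and 1075 with the block and length trend removed. Leaving out 1 library gave 264 to 938 higher and 20 to 125 lower calls. The cause was not tested in any of these. Settings without both replicate 2 libraries or with the length trend removed were added after seeing the data. The number of libraries, 3 a group, limits the precision.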
